A study of Homo sapiens with 12 samples.

Results

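Host genes of small nucleolar RNAs (snoRNAs) and microRNAs are mostly noncoding transcription units that carry small RNAs inside their introns or exons. The 73 genes described here were every row, of 56104 genes listed in both count tables, whose symbol was GAS5, SNHG with a number, or MIR with the ending HG. By those names 23 were snoRNA hosts and 50 were microRNA hosts. The rule reads symbols alone. The cells were HCT116, an established human colorectal carcinoma line, in which PPM1G, a nuclear serine/threonine phosphatase of the PP2C class, had been knocked out (KO) or not (Ctrl). The first assay, 4sU-seq, reads newly made RNA: cells took up 4-thiouridine (4sU) during a pulse of 10 min at 500 µM, and labelled RNA was biotinylated (300 µg of RNA as input) and captured on streptavidin beads. The second, RNA-seq, reads steady-state RNA. The 4 groups were 4sU-seq of KO cells, 4sU-seq of Ctrl cells, RNA-seq of KO cells and RNA-seq of Ctrl cells, with 3 libraries each and 12 in all. Both genotypes were kept under 15 passages in the same serum-supplemented medium, and every library received ERCC spike-in RNA. The sample titles spell the Ctrl cells as Ctrl_KO without saying what that line carries, and whether either line is 1 clone is not given. Separate cultures per replicate are stated for 4sU-seq and not for RNA-seq, so the RNA-seq p-values measure the spread between these libraries, which may be technical.

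A snoRNA is released when its host intron is spliced out and trimmed. Box C/D snoRNAs then guide 2′-O-methylation and box H/ACA snoRNAs guide pseudouridylation of ribosomal RNA, while the related scaRNAs act on small nuclear RNAs of the spliceosome. The spliced exons of several hosts, GAS5 and SNHG1 among them, are known to be short-lived because translation of their short reading frames exposes them to nonsense-mediated decay (NMD), and some start with a pyrimidine tract of the 5′TOP kind that is typical of ribosomal protein genes. A microRNA is instead cut out of its host transcript by DROSHA with DGCR8 and finished by DICER1, and it finds its targets through the seed near its 5′ end.

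The mature microRNAs of the hosts whose levels are described below are shown first, because the hosts differ in the seeds they carry. Matching RefSeq's mature sequences (GRCh38.p14) to the spans of the host genes placed 130 mature microRNAs from 81 microRNA genes in 41 of the 73 hosts. In each line below, 5′ to 3′, capitals mark the seed (bases 2 to 8).
hsa-miR-17-5p (MIR17HG): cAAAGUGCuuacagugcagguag
hsa-miR-20a-5p (MIR17HG): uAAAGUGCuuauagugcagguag
hsa-miR-19b-3p (MIR17HG): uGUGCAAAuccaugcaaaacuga
hsa-miR-92a-3p (MIR17HG): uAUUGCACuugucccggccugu
hsa-miR-181a-5p (MIR181A1HG and MIR181A2HG): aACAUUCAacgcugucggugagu
hsa-miR-181b-5p (MIR181A1HG): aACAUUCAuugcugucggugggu
hsa-miR-193b-3p (MIR193BHG): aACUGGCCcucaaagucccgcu
hsa-miR-365a-3p (MIR193BHG): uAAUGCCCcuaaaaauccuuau
hsa-miR-210-3p (MIR210HG): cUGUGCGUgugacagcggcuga
hsa-let-7a-5p (MIR100HG and MIRLET7BHG): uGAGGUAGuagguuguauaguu
hsa-let-7b-5p (MIRLET7BHG): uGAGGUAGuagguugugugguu
hsa-miR-100-5p (MIR100HG): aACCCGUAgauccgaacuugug
hsa-miR-125b-5p (MIR100HG): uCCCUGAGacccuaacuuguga
The let-7 seed GAGGUAG was carried by microRNAs of 4 hosts (MIR100HG, MIR99AHG, MIRLET7BHG and MIR4500HG), and the miR-181 seed ACAUUCA by those of MIR181A1HG and MIR181A2HG. MIR17HG, the miR-17-92 cluster, held 2 microRNAs with the seed AAAGUGC beside members of other seeds. Mature microRNAs were not measured in these libraries, so every value below is of a host transcript.

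For the snoRNA hosts the start site is shown, because several of them are known to begin with a pyrimidine tract. In the RefSeq windows of 30 bases (10 before and 20 from the annotated start, sense strand), a run of at least 5 bases that began with C at the first transcribed base and held only C and T was found for 5 of 18 snoRNA hosts with an entry (27.8%), against 2 of 54 windows of microRNA hosts (3.7%) and 4.07% of 35116 windows of all genes. The 5 were SNHG4, SNHG5, SNHG12, SNHG18 and SNHG19. SNHG18 had too few counts to be tested in either assay. Capitals mark the run in the other 4.
SNHG5 (chr6:85678714-85678743, minus strand): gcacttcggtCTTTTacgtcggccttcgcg
SNHG12 (chr1:28581854-28581883, minus strand): gcttcagcgcCCTTTCTCCCCgccgcattc
SNHG19 (chr16:2155339-2155368, minus strand): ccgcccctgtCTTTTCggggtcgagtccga
SNHG4 (chr5:139274091-139274120, plus strand): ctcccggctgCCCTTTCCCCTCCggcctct
The annotated start need not be the one used in HCT116 cells. The windows of GAS5, SNHG16 and SNHG17, among others, had a run of 0 bases and that of SNHG1 a run of 3.

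The 4sU-seq libraries held 79403238 to 101884166 counts over genes and the RNA-seq libraries 30962756 to 42479828. Levels are given as CPM, counts scaled to library size with TMM factors within each assay. PPM1G itself had 98.9, 144 and 104 CPM in KO 4sU-seq, against 242, 271 and 235 CPM in Ctrl 4sU-seq (log2 change -1.11 ± 0.17 SE, edgeR adjusted p 0.00717). In RNA-seq it had 97.9, 95 and 98.0 CPM in KO cells, against 326, 293 and 331 CPM in Ctrl cells (log2 change -1.71 ± 0.06 SE, edgeR adjusted p 1.77e-10). Of 9 markers of colorectal epithelium, EPCAM, CDH1, KRT8, KRT18, KRT19 and CDX2 were present in both genotypes. KRT8 was at 1271 CPM in KO RNA-seq and 1370 CPM in Ctrl RNA-seq. VIL1 was low in RNA-seq (0.237 CPM in KO and 0.168 CPM in Ctrl) and at 3.95 CPM in KO and 3.67 CPM in Ctrl 4sU-seq. LGR5 was at 0.0268 CPM in KO and 0.0208 CPM in Ctrl RNA-seq, and CDX1 was at 0 in RNA-seq. The leukocyte marker PTPRC averaged under 0.1 CPM in every group and the fibroblast marker LUM was at 0. COL1A1 was measured, at 10.1 CPM in KO and 5.12 CPM in Ctrl RNA-seq, with COL1A2 and DCN at 0 there. The endothelial marker PECAM1 was at 9.12 CPM in KO and 4.26 CPM in Ctrl 4sU-seq, and at 0.234 CPM in KO and 0.125 CPM in Ctrl RNA-seq. In 4sU-seq VWF was at 3.24 CPM in KO and 1.89 CPM in Ctrl, and CDH5 at 0.332 CPM in KO and 0.0571 CPM in Ctrl. All 3 endothelial markers were called higher in KO 4sU-seq, and none was tested in RNA-seq. The 4sU-seq library of KO replicate 2 stood apart from the other KO libraries on long genes, so the counts of called hosts are given with and without it.

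Of the 73 hosts, 32 passed the filter on low counts in both assays, 9 in 4sU-seq only, 8 in RNA-seq only and 24 in neither. The 24 were SNHG18 and 23 microRNA hosts, MIR137HG, MIR202HG and MIR205HG among them. They included 4 with no count in any of the 12 libraries: MIR124-2HG, MIR4290HG, MIR4307HG and MIR670HG. A count of 0 allows up to 3 counts, or 0.0294 to 0.0378 CPM in 4sU-seq and 0.0706 to 0.0969 CPM in RNA-seq, for counting error only.

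The 8 hosts that passed in RNA-seq only (SNHG3, SNHG4, SNHG20, SNHG22, MIR133A1HG, MIR181A2HG, MIR600HG and MIR762HG) were listed at or near 0 in 4sU-seq. SNHG3, host of the abundant SNORA73 pair (chr1:28505980-28510892, plus strand, GENCODE 29 on GRCh38), had 0 counts over the 6 4sU-seq libraries and 29696 over the 6 RNA-seq libraries. SNHG4 had 0 in 4sU-seq and 5363 in RNA-seq, and MIR600HG 4 in 4sU-seq and 1339 in RNA-seq. All 8 lie largely or wholly within the span of another gene: SNHG3 in RCC1 and SNHG20 in SEC14L1 on the same strand, SNHG4 in SIL1, SNHG22 in MYO5B and MIR181A2HG in NR6A1 on the opposite strand. The same held across the genome. Genes with a mean of at least 10 counts over the RNA-seq libraries were compared. With the whole span under a gene of the same strand and none under the opposite, 96.3% (1149 of 1193) had no count in any 4sU-seq library. With the whole span under the opposite strand and none under the same, 97.1% (2083 of 2146) had none. Of genes with no overlap it was 1.33% (82 of 6146). No source used here says which feature and strand setting was counted in each table. The zeros of these 8 hosts were therefore not read as a measure of their transcription, and a ratio of 4sU-seq to RNA-seq does not compare like with like where annotation overlaps. Hosts that overlap in part are uncertain for the same reason. Of the span, 53.2% lies under GLRX5 on the opposite strand for SNHG10, 43.5% under opposite-strand genes such as ACOXL for MIR4435-2HG, 39.4% under FAM69B for SNHG7 and 27.8% under FSD2 for SNHG21. Of the exonic bases, 36.4% lie under another gene for SNHG6 (MCMDC2 is on the opposite strand), 40.7% for MIR31HG and 27.2% for MIR663AHG.

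In newly made RNA most snoRNA hosts had estimates below 0 in KO cells. Of 18 tested, 4 fell (SNHG5, SNHG10, SNHG15 and SNHG17) and 0 rose, and 15 had a log2 change below 0 (14 with ERCC scaling). Their median log2 change was -0.31, against 0.05 over all 21236 genes tested, of which 46.1% were below 0. The snoRNA hosts' median was -0.13 with ERCC scaling and -0.51 without KO replicate 2. Over all 41 hosts tested, 7 were called at an adjusted p under 0.05, against 19.6% of all genes, and of the genes called higher and lower the backgrounds were 12.6% and 6.98%. The hosts' share called, 17.1%, was near that background. In 7 of the 18 snoRNA hosts all KO libraries were below all Ctrl libraries, a pattern seen in 17.8% of all genes, and in 0 were all KO libraries above, which was seen in 20.6%. Over all 41 hosts the groups did not overlap in 14, 12 with KO below and 2 with KO above, against 38.4% of all genes. In bulk libraries less RNA per cell and fewer cells making it cannot be told apart.

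**Figure D1:**
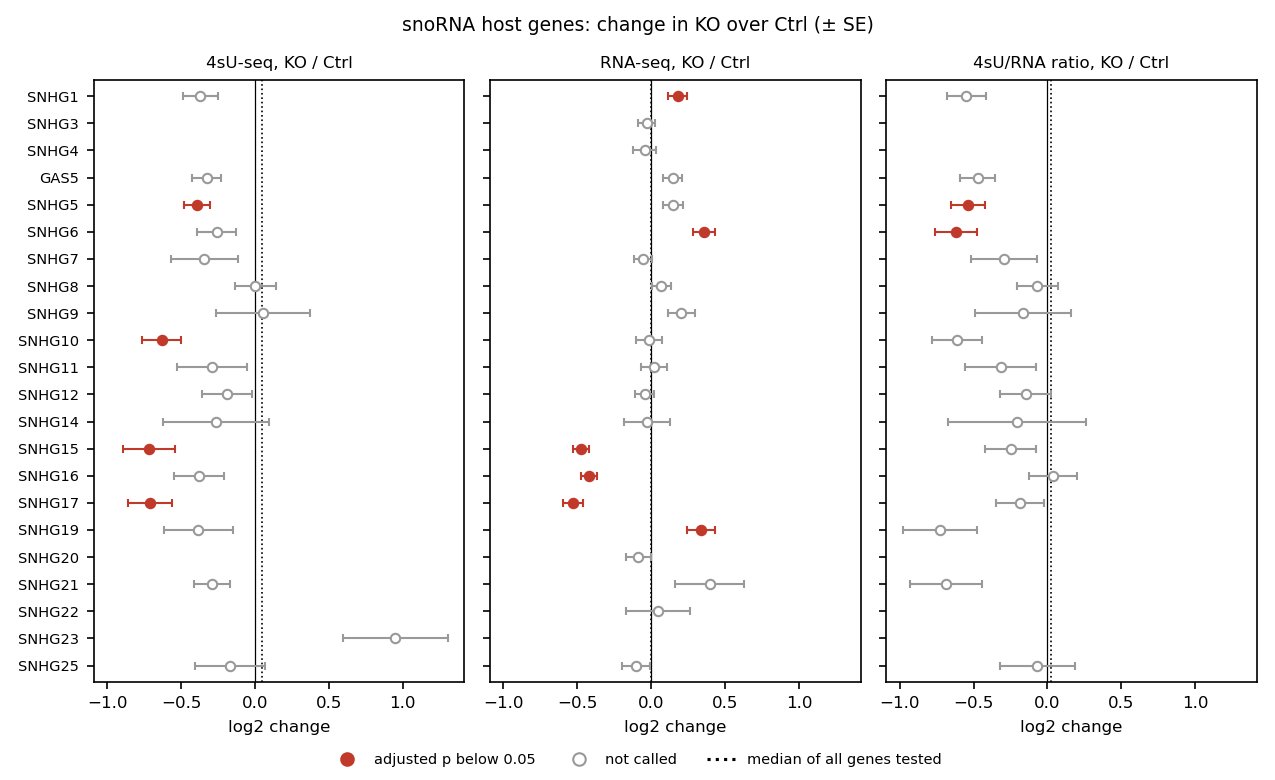
Log2 change in KO over Ctrl (x axis, ± SE) of each snoRNA host tested, in 4sU-seq, RNA-seq and the 4sU/RNA ratio. Filled red points passed an adjusted p of 0.05, open grey points did not, and the dotted line is the median of all genes tested. In 4sU-seq 15 of 18 points lie below 0 (14 with ERCC scaling), in RNA-seq 11 of 21 (5 with ERCC scaling and 3 by library size alone) and in the ratio 16 of 17 (14 with ERCC scaling).

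SNHG17, which holds the SNORA71 group of H/ACA snoRNAs (chr20:38420588-38435353, minus strand), had 172, 232 and 165 CPM in KO 4sU-seq, against 311, 323 and 296 CPM in Ctrl 4sU-seq. KO replicate 2 was the highest of the KO libraries, and all 3 lay below all Ctrl libraries (log2 change -0.71 ± 0.15 SE, edgeR adjusted p 0.0214). SNHG15, host of SNORA9 (chr7:44983023-44986961, minus strand), had 51.1, 72.3 and 48.9 CPM in KO and 95.6, 100.0 and 87.5 CPM in Ctrl. Again KO replicate 2 was highest and the groups did not overlap (-0.72 ± 0.18 SE, edgeR adjusted p 0.0344).

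SNHG5, host of SNORD50A and SNORD50B (chr6:85660950-85678748, minus strand), varied little between libraries. It had 137, 149 and 146 CPM in KO 4sU-seq, against 187, 191 and 188 CPM in Ctrl, with no overlap (log2 change -0.39 ± 0.09 SE, edgeR adjusted p 0.0266). SNHG10, host of SCARNA13 (chr14:95532297-95534872, minus strand), was a low gene at 5.20, 4.45 and 4.79 CPM in KO and 8.24, 7.02 and 7.11 CPM in Ctrl. Its groups did not overlap either (-0.63 ± 0.13 SE, edgeR adjusted p 0.0211), with the reservation on GLRX5 above.

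GAS5, the host of 11 snoRNAs in RefSeq (chr1:173863900-173868882, minus strand), is known as a growth-arrest transcript that accumulates when translation is slowed. It had 227, 265 and 231 CPM in KO 4sU-seq, against 294, 319 and 293 CPM in Ctrl. Every KO library lay below every Ctrl library, but the change did not pass the threshold (-0.33 ± 0.10 SE, edgeR adjusted p 0.0679). SNHG1, which RefSeq lists with 9 snoRNAs of mostly the SNORD22 to SNORD31 run, showed the same order without passing, at 182, 229 and 186 CPM in KO and 244, 271 and 256 CPM in Ctrl (-0.37 ± 0.12 SE, edgeR adjusted p 0.0804).

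The remaining snoRNA hosts did not pass in 4sU-seq. SNHG16, host of the SNORD1 trio, had 254, 358 and 243 CPM in KO and 352, 405 and 354 CPM in Ctrl. Its KO replicate 2 reached into the Ctrl range (-0.38 ± 0.17 SE, edgeR adjusted p 0.171), and so did that of SNHG19, host of SNORD60, at 18.9, 30.2 and 17.1 CPM in KO against 27.5, 31.6 and 27.2 CPM in Ctrl (-0.38 ± 0.23 SE, edgeR adjusted p 0.302). SNHG8, host of SNORA24, was level with a log2 change of 0.00 ± 0.14 SE (41.9, 51.9 and 41.1 CPM in KO, against 44.0, 48.8 and 41.8 CPM in Ctrl). SNHG23, a 144 kb unit at 14q32, had the highest change of the snoRNA hosts, 0.95 ± 0.35 SE, and did not pass (edgeR adjusted p 0.112).

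The nascent calls depended on single libraries and on the scaling. Leaving out KO replicate 1 or any 1 Ctrl library left 0 of the 7 calls, with 8 to 14 hosts at an unadjusted p under 0.05. Of all genes 6.09 to 7.87% were called in those fits. Leaving out KO replicate 3 gave 2 called hosts, with 12.9% of all genes called. Leaving out KO replicate 2 gave 27 called hosts, 7 higher and 20 lower, with 53.8% of all genes then called. Scaled to the ERCC spike-ins, 0 hosts were called by edgeR (3 at an unadjusted p under 0.05, all higher). With that scaling 3.37% of all genes were called, and the median of all genes moved to 0.27. Spike-in counts were few and uneven between replicates. They were 0.0324, 0.0560 and 0.0230% of gene counts in KO 4sU-seq and 0.0347, 0.0457 and 0.0308% in Ctrl 4sU-seq. The 0 calls and the moved median were therefore not read as a result about the hosts or about total output. By library size alone 4 hosts were called (2 higher, 2 lower), with 18.6% of all genes. With the DESeq2 Wald test 12 hosts were called, GAS5 (adjusted p 0.0328) and SNHG1 (adjusted p 0.0424) among them. That test called 26.0% of all genes.

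In steady-state RNA the snoRNA hosts split. Of 21 tested, 3 fell (SNHG15, SNHG16 and SNHG17), 3 rose (SNHG1, SNHG6 and SNHG19) and 15 did not pass. Their median log2 change was -0.01 (0.07 with ERCC scaling and 0.17 by library size alone), against 0.00 over all 20415 genes tested. Among all 40 hosts tested 15 were called (8 higher, 7 lower), where 48.4% of all genes were called (21.5% higher and 26.8% lower). The hosts' share was 37.5%. The split followed the scaling. By library size alone 15 were higher and 4 lower, with 50.2% of all genes called and their median at 0.19. With ERCC scaling 9 were higher and 3 lower, with 34.8% of all genes called and that median at 0.08. The groups did not overlap in 15 of the 40, 5 with KO below and 10 with KO above, against 56.1% of all genes (29.9% below and 26.1% above). By family the called share was 28.6% of snoRNA hosts and 47.4% of microRNA hosts.

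SNHG16 had 430, 440 and 453 CPM in KO cells, against 572, 587 and 612 CPM in Ctrl cells, with a wide gap between the groups (-0.42 ± 0.05 SE, edgeR adjusted p 3.08e-05). SNHG17 had 36.7, 34.7 and 30.6 CPM in KO and 48.2, 51.0 and 47.7 CPM in Ctrl (-0.53 ± 0.07 SE, edgeR adjusted p 2.65e-05). SNHG15 had 35.1, 35.7 and 33.8 CPM in KO and 47.3, 50.5 and 47.4 CPM in Ctrl (-0.47 ± 0.05 SE, edgeR adjusted p 1.09e-05). The groups were separate for all of these, and SNHG15 and SNHG17 thus fell in both assays. The calls of all 3 held under every alternative run and without any 1 library.

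On the other side, SNHG6, host of SNORD87, had 98.0, 98.3 and 101 CPM in KO RNA-seq, against 68.0, 81.0 and 83.8 CPM in Ctrl (0.36 ± 0.07 SE, edgeR adjusted p 0.00125). SNHG19 had 12.5, 14 and 13.7 CPM in KO, against 10.1, 12.3 and 9.50 CPM in Ctrl (0.34 ± 0.09 SE, edgeR adjusted p 0.00924). In both, all KO libraries lay above all Ctrl libraries. SNHG1 had 241, 249 and 253 CPM in KO and 209, 243 and 205 CPM in Ctrl, where Ctrl replicate 2 reached into the KO range (0.18 ± 0.07 SE, edgeR adjusted p 0.0390), and its call was lost without any 1 KO library (edgeR adjusted p 0.0788 to 0.130) and with the span trend removed (edgeR adjusted p 0.128).

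GAS5 stood just above the threshold, at 220, 224 and 219 CPM in KO RNA-seq and 180, 217 and 202 CPM in Ctrl. All KO libraries were above all Ctrl libraries, by a small margin from Ctrl replicate 2 (0.15 ± 0.07 SE, edgeR adjusted p 0.0843). GAS5 passed in 7 of 8 alternatives (edgeR or DESeq2 adjusted p 0.000917 to 0.0418). The lowest was by library size alone, where the median of all genes was 0.19. With 1 library left out it passed only without Ctrl replicate 2 (edgeR adjusted p 0.00619) or without Ctrl replicate 3 (edgeR adjusted p 0.0340). SNHG5 had 67.1, 68.8 and 72.6 CPM in KO and 56.9, 67.4 and 63.8 CPM in Ctrl, where Ctrl replicate 2 lay above KO replicate 1 (0.15 ± 0.07 SE, edgeR adjusted p 0.0858). SNHG3, SNHG4, SNHG7, SNHG8, SNHG10 and SNHG12 had log2 changes from -0.05 to 0.07, none called. For SNHG3 the values were 141, 140 and 135 CPM in KO and 132, 149 and 144 CPM in Ctrl, within one another's range.

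**Figure D2:**
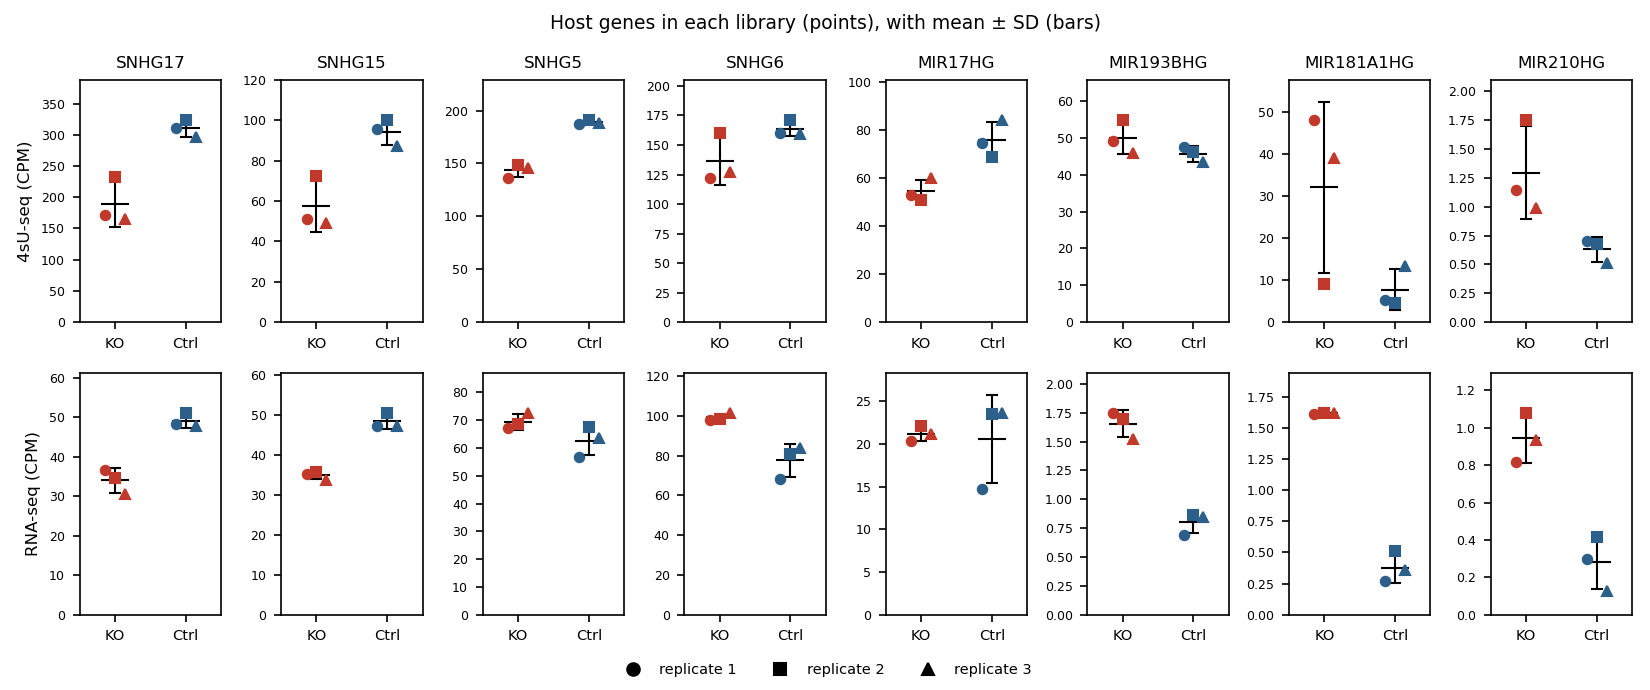
CPM (y axis, from 0, own scale in each panel) of 8 host genes in each library of 4sU-seq (top) and RNA-seq (bottom), KO left of Ctrl. Points are libraries, with replicate number by shape, and bars are the mean ± SD (n = 3). SNHG17 and SNHG15 are lower in KO in both assays, and SNHG5 is lower in KO 4sU-seq alone (137 to 149 against 187 to 191 CPM). MIR193BHG passed as higher in KO RNA-seq (1.52 to 1.75 against 0.691 to 0.867 CPM). In 4sU-seq its groups overlap (46.0 to 54.8 CPM in KO and 43.4 to 47.5 CPM in Ctrl) and the change did not pass.

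Whether a host changed unequally in the 2 assays was tested directly, as the change of its 4sU/RNA ratio between KO and Ctrl in 1 model over the 12 libraries. Of 32 hosts tested, 3 had a lower ratio in KO (SNHG5, SNHG6 and MIR193BHG) and 0 a higher one, where 2.5% of all 15863 genes were called, 1.25% in each direction. Of the 17 snoRNA hosts, 16 had an estimate below 0 (14 with ERCC scaling), with a median of -0.30 against 0.03 over all genes. That median was -0.53 without the 4sU-seq library of KO replicate 2 and -0.15 without that of KO replicate 3. SNHG5 changed by -0.54 ± 0.11 SE (edgeR adjusted p 0.0331), from a nascent change below 0 and a steady-state estimate above it. SNHG6 changed by -0.62 ± 0.14 SE (edgeR adjusted p 0.0498), and its nascent RNA was 122, 160 and 127 CPM in KO against 160, 171 and 159 CPM in Ctrl, with KO replicate 2 inside the Ctrl range.

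SNHG1 (-0.55 ± 0.13 SE, edgeR adjusted p 0.0541), GAS5 (-0.47 ± 0.12 SE, edgeR adjusted p 0.0630) and SNHG10 (-0.61 ± 0.17 SE, edgeR adjusted p 0.0880) had estimates of like size and did not pass. The 3 snoRNA hosts that fell in RNA-seq had ratio changes nearer 0: -0.25 ± 0.17 SE for SNHG15, -0.19 ± 0.16 SE for SNHG17 and 0.04 ± 0.16 SE for SNHG16, none called. The ratio calls depended on the scaling and on single libraries too. With ERCC scaling 0 hosts and 0.04% of all genes were called by edgeR, with 2 hosts at an unadjusted p under 0.05. Leaving out 1 library gave 0 to 4 called hosts, except that 14 (2 higher, 12 lower) were called without the 4sU-seq library of KO replicate 2. Without that library 27.5% of all genes were called, against 0.54 to 2.28% in the other fits with 1 library left out.

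Calls among the microRNA hosts lay on both sides. In 4sU-seq 23 were tested: MIR210HG and MIR5689HG rose and MIR17HG fell, or 13% called against 19.6% of all genes. The median log2 change was -0.02 with 12 estimates below 0, against 0.05 and 46.1% below 0 over all genes. With ERCC scaling it was 0.11 with 5 below 0, where the median of all genes was 0.27. Under either scaling 13 of the 23 lay below the median of all genes. In RNA-seq 19 were tested: MIR181A1HG, MIR193BHG, MIR210HG, MIR2052HG and MIR600HG rose, and MIR100HG, MIR4435-2HG, MIR663AHG and MIRLET7BHG fell. Of these 19 hosts 47.4% were called, against 48.4% of all genes. The median in RNA-seq was 0.06 (0.15 with ERCC scaling, 0.24 by library size alone and -0.16 over the 10 hosts with a mean of at least 50 counts). Over all genes it was 0.00 (0.08, 0.19 and -0.01 in the same order).

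MIR181A1HG had the largest estimate of the hosts tested in each of the 2 assays (chr1:198807493-198937429, minus strand). It had 1.61, 1.62 and 1.62 CPM in KO RNA-seq, against 0.271, 0.508 and 0.357 CPM in Ctrl. These rest on 52 to 63 reads in KO libraries and 11 to 17 in Ctrl libraries, and the groups were far apart (2.1 ± 0.23 SE, edgeR adjusted p 6.48e-06). In 4sU-seq it had 48, 9.20 and 39.0 CPM in KO, against 5.31, 4.54 and 13.3 CPM in Ctrl. KO replicate 2 lay below Ctrl replicate 3, and the nascent estimate did not pass (2.06 ± 0.69 SE, edgeR adjusted p 0.0841; DESeq2 adjusted p 0.00461). The other host of the miR-181 seed, MIR181A2HG, had a steady-state estimate of 0.68 ± 0.30 SE that did not pass (edgeR adjusted p 0.0771).

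MIR210HG, host of a microRNA known for its induction in hypoxia, was the only host called higher in both assays. It had 1.15, 1.75 and 0.986 CPM in KO 4sU-seq and 0.705, 0.677 and 0.511 CPM in Ctrl 4sU-seq (1.03 ± 0.26 SE, edgeR adjusted p 0.0386). In RNA-seq it had 0.819, 1.08 and 0.933 CPM in KO and 0.296, 0.418 and 0.130 CPM in Ctrl (1.71 ± 0.31 SE, edgeR adjusted p 0.000402). It was a low gene, with 85 to 146 reads in KO and 42 to 70 in Ctrl 4sU-seq, and the groups were separate in each assay. Its RNA-seq values rest on 30, 42 and 30 reads in KO and 12, 14 and 4 in Ctrl.

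MIR193BHG, the unit of miR-193b and miR-365a (chr16:14301389-14331067, plus strand), rose in steady-state RNA, and its nascent change did not pass. It had 1.75, 1.69 and 1.52 CPM in KO RNA-seq, against 0.691, 0.867 and 0.843 CPM in Ctrl (1.06 ± 0.18 SE, edgeR adjusted p 0.000296). In 4sU-seq it had 49.2, 54.8 and 46.0 CPM in KO, against 47.5, 46.1 and 43.4 CPM in Ctrl (0.13 ± 0.12 SE, edgeR adjusted p 0.481). The groups were separate in RNA-seq and overlapped in 4sU-seq, and its ratio fell by 0.93 on the log2 scale (SE 0.16, edgeR adjusted p 0.0152). The RNA-seq values come from 49 to 66 reads in KO libraries and 26 to 29 in Ctrl libraries.

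MIR17HG, the precursor of the miR-17-92 cluster and a known MYC target, fell in newly made RNA and did not pass in steady-state RNA (chr13:91347820-91354579, plus strand). It had 53.2, 51.0 and 59.97 CPM in KO 4sU-seq, against 74.7, 68.9 and 84.1 CPM in Ctrl, with no overlap (-0.47 ± 0.13 SE, edgeR adjusted p 0.0457). In RNA-seq it had 20.4, 22.1 and 21.2 CPM in KO and 14.7, 23.5 and 23.6 CPM in Ctrl, with overlap (0.05 ± 0.13 SE, edgeR adjusted p 0.787). The change of its ratio did not pass (-0.51 ± 0.24 SE, edgeR adjusted p 0.318).

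The 2 hosts of let-7 seeds that were tested in RNA-seq, MIRLET7BHG and MIR100HG, fell there. MIRLET7BHG had 15.1, 15.2 and 13.7 CPM in KO and 17.2, 19.5 and 15.0 CPM in Ctrl, where Ctrl replicate 3 lay inside the KO range (-0.23 ± 0.09 SE, edgeR adjusted p 0.0412). MIR100HG had 81.8, 78.9 and 89.0 CPM in KO and 88.0, 104 and 97.4 CPM in Ctrl, also with overlap (-0.21 ± 0.07 SE, edgeR adjusted p 0.0236). MIRLET7BHG lost its call in 6 of 8 alternatives and without any 1 of 5 libraries, and MIR100HG in 3 of 8 and without any 1 of 4.

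MIR4435-2HG, 487 kb long, had 18.4, 18.3 and 14.8 CPM in KO RNA-seq and 23.1, 21.1 and 22.8 CPM in Ctrl (-0.38 ± 0.08 SE, edgeR adjusted p 0.00169). MIR663AHG had 29.4, 32.8 and 31.8 CPM in KO and 38.2, 43.3 and 39.5 CPM in Ctrl (-0.36 ± 0.06 SE, edgeR adjusted p 0.000389). In both the KO libraries lay below the Ctrl libraries, and both missed the threshold with ERCC scaling (edgeR adjusted p 0.0680 and 0.0506), MIR4435-2HG also by library size alone (edgeR adjusted p 0.10).

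MIR600HG, which lies inside STRBP, had 6.74, 6.96 and 7.03 CPM in KO RNA-seq and 5.67, 6.13 and 5.19 CPM in Ctrl (0.29 ± 0.09 SE, edgeR adjusted p 0.0221). MIR2052HG had 0.901, 0.796 and 0.653 CPM in KO and 0.543, 0.538 and 0.389 CPM in Ctrl (0.67 ± 0.24 SE, edgeR adjusted p 0.0346), from 12 to 33 reads per library. Both sets of libraries were separate between genotypes, and the 2 calls were each lost without any 1 of 3 libraries. That of MIR600HG was also lost with ERCC scaling (edgeR adjusted p 0.0514), and that of MIR2052HG with the DESeq2 Wald test (adjusted p 0.144). MIR5689HG had 3.84, 2.84 and 3.57 CPM in KO 4sU-seq and 2.15, 1.93 and 1.99 CPM in Ctrl (0.75 ± 0.16 SE, edgeR adjusted p 0.0207), and too few RNA-seq reads to be tested.

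**Figure D3:**
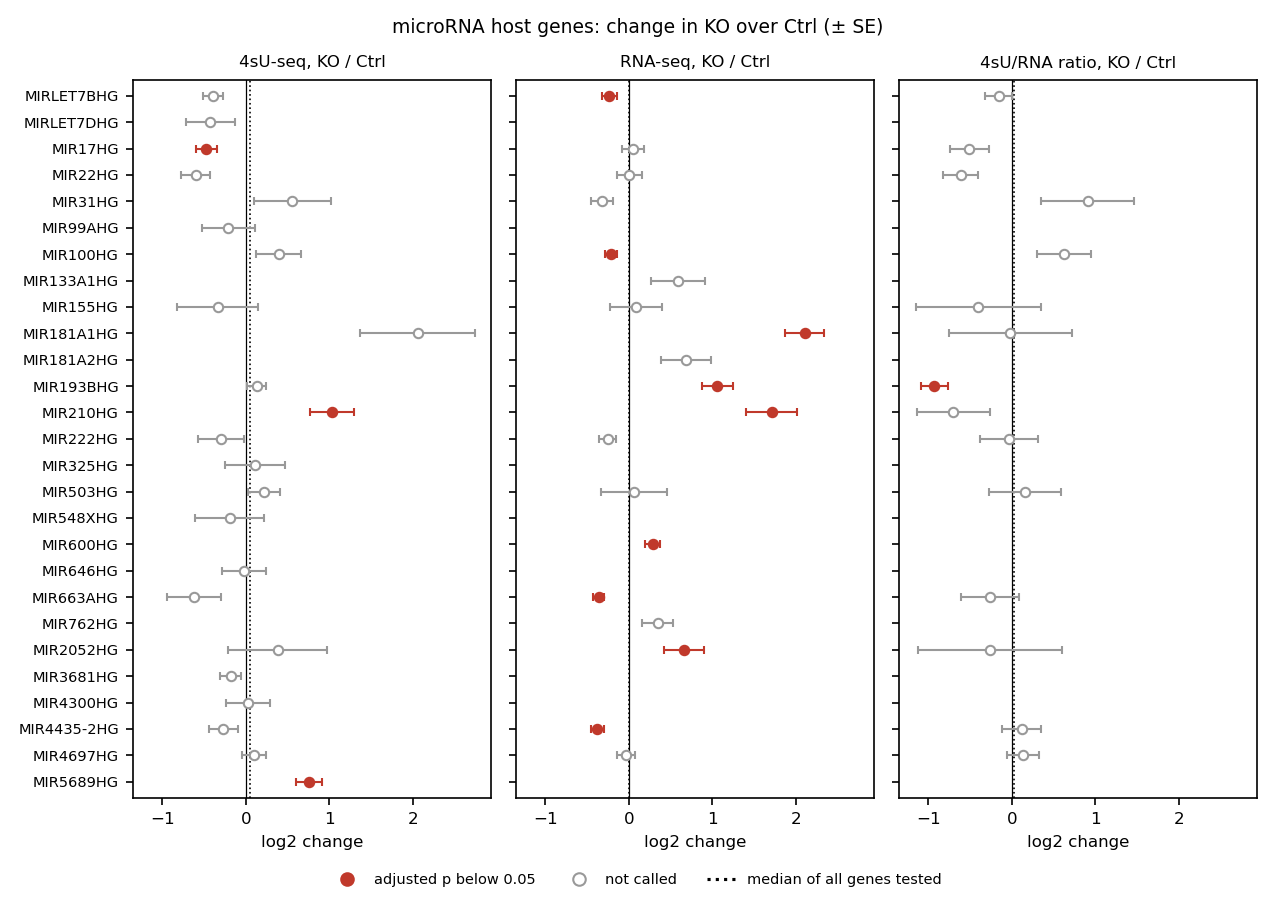
Log2 change in KO over Ctrl (x axis, ± SE) of each microRNA host tested, in 4sU-seq, RNA-seq and the 4sU/RNA ratio. Filled red points passed an adjusted p of 0.05, open grey points did not, and the dotted line is the median of all genes tested. MIR181A1HG stands at 2.06 in 4sU-seq with an SE of 0.69 and at 2.1 in RNA-seq with an SE of 0.23.

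Among the long hosts, the 4sU-seq libraries of replicate 2 were low. Of the 13 hosts spanning over 100 kb that passed the filter in 4sU-seq, KO replicate 2 was the lowest KO library in 10 and Ctrl replicate 2 the lowest Ctrl library in 9. For MIR31HG, a 104 kb unit at 9p21, the values were 923, 329 and 918 CPM in KO and 399, 340 and 736 CPM in Ctrl. KO replicate 2 was at 0.357 of the mean of the other KO libraries, and Ctrl replicate 2 at 0.600 of the mean of the other Ctrl libraries. For MIR100HG, 528 kb, the values were 1566, 838 and 1588 CPM in KO and 966, 841 and 1229 CPM in Ctrl.

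MIR31HG and MIR100HG overlapped between genotypes and neither passed in 4sU-seq (0.56 ± 0.46 SE, edgeR adjusted p 0.446; 0.40 ± 0.27 SE, edgeR adjusted p 0.356). A low KO replicate 2 was not particular to hosts over 100 kb. MIR222HG, host of miR-221 and miR-222 and 25.1 kb long, had 264, 145 and 285 CPM in KO against 269, 238 and 345 CPM in Ctrl (-0.30 ± 0.27 SE, edgeR adjusted p 0.50). MIR155HG, 13.3 kb long, had 5.06, 1.82 and 6.85 CPM in KO 4sU-seq. Of the hosts over 100 kb, MIR3681HG and MIR646HG had KO replicate 2 at 0.987 and 1.3 of the mean of the other KO libraries. MIR4300HG, the longest host at 838 kb, had instead its highest value in KO replicate 2, at 16.3, 28.2 and 15.0 CPM in KO and 17.5, 22.0 and 18.9 CPM in Ctrl. Over all genes, those above 100 kb had a median nascent change of 0.25, against 0.00 for those under 10 kb, and the hosts of those classes had medians of 0.02 and -0.29. With the trend on gene length removed from the 4sU-seq fit, 14 hosts were called, 3 higher and 11 lower, and 8 snoRNA hosts were among the lower. In that fit 25.3% of all genes were called (5378 of 21236, 3000 higher and 2378 lower). The part of length in the calls was not tested further.

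**Figure D4:**
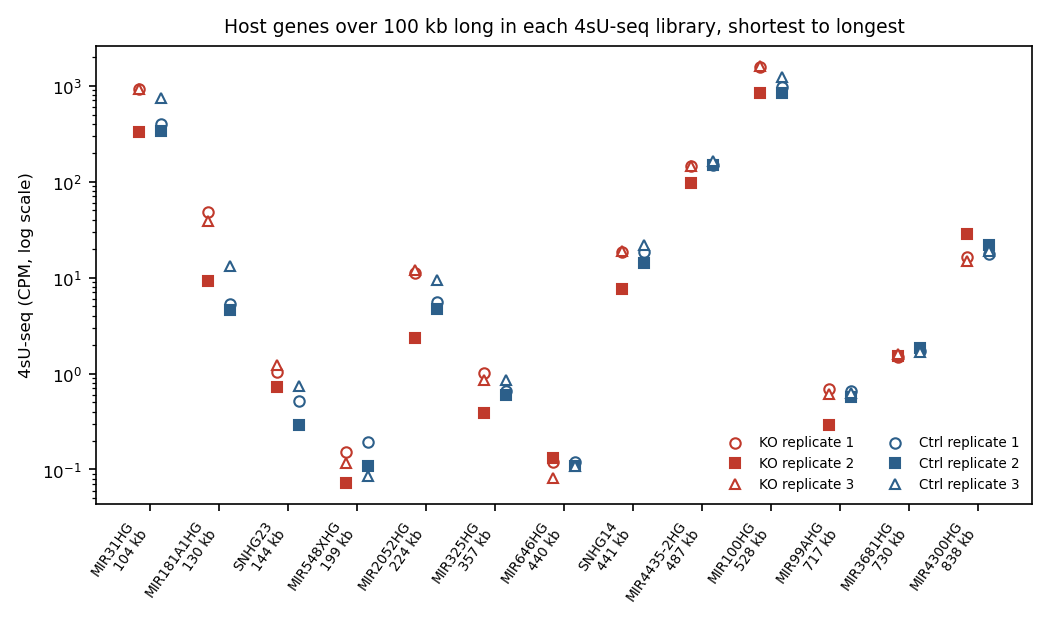
CPM (y axis, log scale) of the 13 hosts over 100 kb in each 4sU-seq library, ordered by span along the x axis, with KO in red left of Ctrl in blue. Squares are replicate 2, circles replicate 1 and triangles replicate 3. The red square is the lowest KO value in 10 of the 13 hosts.

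The level of 4sU-seq over RNA-seq (log2 of CPM + 0.5 in each) described the hosts within a genotype. Across the 32 hosts measured in both assays its median was 0.70 in KO cells and 1.23 in Ctrl cells, against 0.23 in KO and 0.19 in Ctrl over all genes. The snoRNA hosts had medians of 0.34 in KO and 0.50 in Ctrl, and the microRNA hosts 2.82 in KO and 2.76 in Ctrl. MIR31HG had the highest ratio, 6.42 in KO and 5.56 in Ctrl, and SNHG9, host of SNORA78, the lowest, -1.20 in KO and -1.05 in Ctrl. Of the 32 hosts, 12 lay above the 90th percentile of all genes in each genotype (2.12 in KO and 2.05 in Ctrl).

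The ratio went with the length of the host, as it did for all genes. Under 10 kb the 17 hosts had a median of 0.12 in KO and 0.27 in Ctrl, against -0.40 in KO and -0.43 in Ctrl over all genes of that span. From 10 to 100 kb the 7 hosts had 2.46 in KO and 2.65 in Ctrl, against 0.26 in KO and 0.24 in Ctrl over all genes, and above 100 kb the 6 hosts had 3.40 in KO and 3.03 in Ctrl, against 1.51 in KO and 1.26 in Ctrl. Within the middle class, MIR193BHG (4.55 in KO, 5.15 in Ctrl) and MIRLET7BHG (4.42 in KO, 4.59 in Ctrl) were high, whereas MIR663AHG, of 64.6 kb, was at -0.45 in KO and -0.20 in Ctrl. The extreme cases could not enter: MIR4300HG had 1292 to 2355 counts in KO and 1558 to 1824 in Ctrl 4sU-seq libraries and 1 count over all 6 RNA-seq libraries, and MIR3681HG, of 730 kb, had 127 to 146 counts in KO and 137 to 169 in Ctrl 4sU-seq libraries and 0 in RNA-seq. Whether each table counted introns is not given, so the level of this ratio was not read as a turnover rate.

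**Figure D5:**
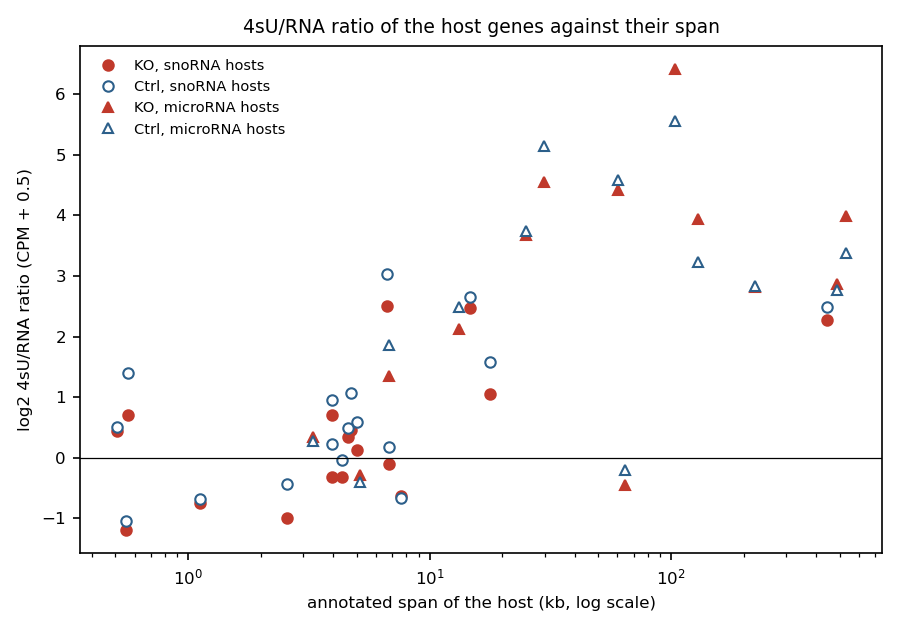
Log2 4sU/RNA ratio (y axis, CPM + 0.5) of the hosts tested in both assays against their annotated span (x axis, kb, log scale). Filled red points are KO and open blue points Ctrl, with circles for snoRNA hosts and triangles for microRNA hosts. Hosts above 100 kb lie between 2.27 and 6.42 in KO and between 2.49 and 5.56 in Ctrl.

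Other snoRNA hosts were looked at beside these. Of 4 noncoding snoRNA hosts with names of another form, ZFAS1, host of the SNORD12 group, fell in 4sU-seq (-0.54 ± 0.10 SE, edgeR adjusted p 0.0142) and rose in RNA-seq (0.22 ± 0.05 SE, edgeR adjusted p 0.00323). Its ratio fell by 0.76 on the log2 scale (SE 0.10, edgeR adjusted p 0.00436). C6orf48 (SNHG32 in later naming) fell in both assays (-0.66 ± 0.17 SE and -0.25 ± 0.09 SE, edgeR adjusted p 0.0381 and 0.0325), and EPB41L4A-AS1 rose in RNA-seq (0.16 ± 0.05 SE, edgeR adjusted p 0.0260). Of 31 protein-coding snoRNA hosts tested in 4sU-seq 3 fell (RPL21, CHD8 and CCT6A) and 0 rose, or 9.68% called against 19.6% of all genes, with a median of -0.24 against 0.05. In RNA-seq 14 of 34 fell and 3 rose (50% called, against 48.4% of all genes), the smallest p being those of PRRC2A, NOP56, DKC1 and CHD8, all lower. Protein-coding microRNA hosts had 1 higher (VMP1, host of miR-21, 0.47 ± 0.07 SE, edgeR adjusted p 0.0076) and 1 lower (PANK1) of 16 in 4sU-seq, or 12.5% called, and 3 higher and 7 lower of 16 in RNA-seq, or 62.5% called.

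The factors that act on these RNAs were mostly lower where they were called. Of 14 NMD factors 8 fell in RNA-seq and 0 rose, led by CASC3 (-1.16 ± 0.06 SE), SMG9 (-0.71 ± 0.06 SE), EIF4A3 (-0.57 ± 0.05 SE) and RBM8A (-0.55 ± 0.07 SE), of which CASC3, EIF4A3 and RBM8A are parts of the exon junction complex, and CASC3 and SMG9 were the 2 of 13 that fell in 4sU-seq. Of 11 proteins of box C/D snoRNPs and their assembly 8 fell and 3 rose in RNA-seq, with NUFIP1 at -0.70, NOP56 at -0.51, ZNHIT6 at -0.48 and RUVBL1 at -0.46. Of 6 proteins of box H/ACA particles 4 fell and 0 rose (SHQ1 at -0.65, DKC1 at -0.60, GAR1 at -0.35 and NAF1 at -0.28), while RUVBL1 and GAR1 were the ones that fell in 4sU-seq. Of 13 microRNA processing and effector genes 6 fell and 1 rose in RNA-seq: TNRC6C (-0.60 ± 0.06 SE), DICER1 (-0.40 ± 0.06 SE) and AGO2 (-0.36 ± 0.06 SE) were among those lower, and AGO4 (0.67 ± 0.09 SE) was the one higher. In 4sU-seq XPO5 (-0.58) and DGCR8 (-0.61) fell and AGO4 rose (0.71). These counts stand beside the 48.4% of genes called in RNA-seq and 19.6% in 4sU-seq.

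The small RNAs inside the hosts were listed with few counts. Both tables held 216 snoRNA, scaRNA or microRNA rows inside 49 hosts. Of these, 212 had no count in 4sU-seq and 175 none in RNA-seq, and 0 passed the filter in 4sU-seq and 19 in RNA-seq, SNORA73B inside SNHG3 with the most (9034 counts in KO and 9764 in Ctrl libraries). All lie within the span of a host on its strand. Of genes wholly under a same-strand gene alone, with a mean of at least 10 counts over the RNA-seq libraries, 96.3% had no 4sU-seq count. The 4sU-seq zeros were thus not read as a measure of the small RNAs. A host's value therefore says nothing of the level of its snoRNAs or microRNAs in these libraries.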

How the data were processed

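Tables of raw counts per gene were deposited by the authors, 1 for 4sU-seq and 1 for RNA-seq, with 6 libraries each. Per the submitters' processing notes, FastQC 0.11.2, HISAT2 2.1.0, SAMtools 1.3 and featureCounts were used with hg38, in an order not given. No source used here names the counted feature, the strand setting or the annotation. A repeated header line was dropped, and 92 ERCC rows were kept out of library sizes. No value column was left unmapped.

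Each assay was fitted alone over all genes with edgeR 4.0.16 in R 4.3.3 (filterByExpr with a minimum count of 10, TMM, two-sided quasi-likelihood F test, Benjamini-Hochberg adjusted p, threshold 0.05), with KO over Ctrl as the log2 change. The SE was taken from the size of the log2 change over the root of F. The 4sU/RNA change is the genotype by assay interaction over the 12 libraries, for genes kept in both assays. The within-genotype ratio used CPM plus a pseudocount of 0.5 and has no test. Alternatives were DESeq2 1.42.0, its size factors, library size alone, ERCC scaling, TMM set across the 12 libraries, a filter at a mean of 50 counts, testing with no filter, removal of the trend on gene span (lowess 0.3), a replicate block and leaving out each library.

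Spans come from GENCODE 29 (GRCh38), which placed 52927 of 56104 gene IDs (94.3%) and 70 of 73 hosts (not MIR210HG, MIR22HG or MIR4432HG); sequences and the snoRNAs listed inside hosts come from RefSeq (GRCh38.p14). The fits were tried before use on simulated counts with planted changes. In the 4sU-seq and ratio fits most of the smaller planted changes were missed.

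Named with values were GAS5, every host called in a test, the 6 uncalled hosts with the most RNA-seq CPM and the 3 uncalled microRNA hosts with the most 4sU-seq CPM; further hosts were named after their values were seen. From the other lists, up to 4 called genes per assay were named. The members and lists were chosen with earlier results of these data known. The sample-sheet numbers in the 4sU-seq titles repeat between libraries, and which were sequenced together is not given. Intervals and floors cover counting error only.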

Additional observations from a re-analysis of the deposited data

Results flagged for a closer look

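In 3 hosts the change in KO against Ctrl differed between newly made and steady-state RNA by the interaction test. MIR193BHG changed by -0.93 on the log2 scale (edgeR adjusted p 0.0152), with a nascent change of 0.13 that did not pass and a steady-state change of 1.06 that did. Its call was lost with ERCC scaling and without any 1 of 3 libraries (adjusted p 0.0570 to 0.0640). SNHG5 changed by -0.54 (adjusted p 0.0331), with a nascent change of -0.39 that passed and a steady-state change of 0.15 that did not, and was lost without any 1 of 9 of the 12 libraries (adjusted p 0.0515 to 0.131). SNHG6 changed by -0.62 (adjusted p 0.0498), with a nascent change of -0.26 that did not pass and a steady-state change of 0.36 that did, and was lost without any 1 of 11 of the 12 libraries (adjusted p 0.0630 to 0.159). These 2 calls were also lost with ERCC scaling, and with no filter on low counts (adjusted p 0.0545 for SNHG5 and 0.0837 for SNHG6). All 3 kept a lower ratio in every alternative run.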

How the results depend on the processing

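Steady-state calls numbered 15 in the main fit, 12 to 21 under the alternatives and 10 to 17 when 1 library was left out. The share of all genes called was 27.9 to 58.1% under the alternatives and 39.4 to 48.3% with 1 library left out. The hosts called were not all the same. Of the 15, 10 were among the 12 called with ERCC scaling and 12 among the 19 called by library size alone. With a mean of at least 50 counts 9 of the 15 were among the 12 called, with 30 hosts tested. The nascent and ratio counts varied more. Nascent calls numbered 0 with ERCC scaling by edgeR (3.37% of all genes), with 3 hosts at an unadjusted p under 0.05. They numbered 4 by library size alone (18.6% of genes), 12 with the DESeq2 Wald test (26.0%) and 14 with the span trend removed (25.3%). The replicate block gave 15 (32.5%). Leaving out 1 library gave 0 to 27: 0 without KO replicate 1 or any Ctrl library (6.09 to 7.87%) and 27 without KO replicate 2 (53.8%). Ratio calls numbered 0 with ERCC scaling by edgeR (0.04% of all genes), with 2 hosts at an unadjusted p under 0.05. They numbered 1 with no filter (0.73% of genes), 5 with TMM over all 12 libraries (2.97%) and 5 with the span trend removed (3.91%). The DESeq2 Wald test gave 6 (6.68%), the replicate block 6 (4.14%) and leaving out 1 library 0 to 14 (0.54 to 27.5%). The cause was not tested. Same-numbered libraries did not all deviate together (correlations -0.07, 0.71 and 0.70 in 4sU-seq and -0.04, 0.16 and 0.24 in RNA-seq), so the numbers were not taken as pairs. The median ratio moved to 1.09 in Ctrl with TMM over all libraries, and with no filter to 0.17 in KO and 0.16 in Ctrl; left-out libraries gave 0.46 to 0.83 in KO and 1.17 to 1.31 in Ctrl.

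No change that passed the threshold turned sign under any alternative run. Over all 23 microRNA hosts tested in 4sU-seq, called or not, 12 were below 0, against 5 with ERCC scaling and 11 by library size alone. Below the median of all genes were 13 in each of these settings. Among hosts named with values, these estimates that did not pass changed sign (log2). With ERCC scaling the nascent changes were 0.024 for MIR222HG and 0.033 for MIR4435-2HG, the steady-state changes 0.070 for SNHG10, 0.039 for SNHG12, 0.058 for SNHG3, 0.034 for SNHG4 and 0.035 for SNHG7, and the ratio changes 0.19 for MIR181A1HG, 0.021 for MIR2052HG, 0.19 for MIR222HG and 0.044 for SNHG8. By library size alone the steady-state changes were 0.17 for SNHG10, 0.14 for SNHG12, 0.15 for SNHG3, 0.14 for SNHG4 and 0.13 for SNHG7, and the ratio change of SNHG16 was -0.049. With a mean of at least 50 counts they were 0.054 for SNHG10, 0.024 for SNHG12, 0.038 for SNHG3, 0.023 for SNHG4 and 0.015 for SNHG7. With DESeq2's size factors the nascent changes were -0.018 for MIR4300HG and -0.039 for SNHG8, and the steady-state change of SNHG10 was 0.0019. With the DESeq2 Wald test the nascent changes were -0.018 for MIR4300HG and -0.039 for SNHG8, and the steady-state change of SNHG10 was 0.0025. With no filter the nascent changes were -0.046 for MIR4300HG and -0.068 for SNHG8, and the steady-state change of SNHG10 was 0.0070 and the ratio change of SNHG16 -0.024. With the replicate block the nascent changes were -0.028 for MIR4300HG and -0.0024 for SNHG8. With the span trend removed the nascent changes were -0.16 for MIR4300HG and -0.0071 for SNHG8, and the ratio changes 0.018 for MIR222HG and -0.25 for MIR4435-2HG. With TMM over all 12 libraries the ratio change of SNHG16 was -0.030. When 1 library was left out, nascent changes ranged from -0.0098 to 0.19 for MIR193BHG, -0.39 to 0.19 for MIR4300HG and -0.18 to 0.062 for SNHG8. Steady-state changes ranged from -0.11 to 0.19 for MIR17HG, -0.088 to 0.066 for SNHG10, -0.068 to 0.049 for SNHG12, -0.046 to 0.030 for SNHG3, -0.11 to 0.058 for SNHG4 and -0.065 to 0.014 for SNHG7. Ratio changes ranged from -0.39 to 0.62 for MIR181A1HG, -0.61 to 0.20 for MIR2052HG, -0.22 to 0.24 for MIR222HG, -0.46 to 0.039 for MIR663AHG, -0.12 to 0.14 for SNHG16 and -0.15 to 0.013 for SNHG8.

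MIR181A1HG, MIR193BHG, MIR210HG and MIR2052HG had under 70 reads in each RNA-seq library, MIR210HG as few as 4 in Ctrl replicate 3. An estimate that did not pass is not shown to be unchanged.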
